A study of Mus musculus with 9 samples.

Results

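The genes described here are 10 regulators of the G1 phase of the cell cycle, measured in mouse erythroblasts, the nucleated precursors of red cells. They are the D-type cyclin genes Ccnd2 and Ccnd3, the kinase gene Cdk6, the Cdk inhibitor genes Cdkn1b, Cdkn2a, Cdkn2c and Cdkn2d, the retinoblastoma gene Rb1, and the transcription factor genes E2f2 and E2f4. They were taken by name from the 20018 genes that the array's probes could be matched to. Each probe whose RefSeq accession belonged to 1 of the 10 was used, and 9 of the 10 genes gave enough signal to be tested, among 14637 genes tested in all. Per the labels, all cells were a sorted bone marrow fraction called subset II erythroblasts from wild-type C57BL/6J mice labelled female. The 3 groups were 7 weeks of low iron diet from weaning on, 3 weeks of that diet, and normal diet, with 3 single-colour arrays each. Per the design text the replication was biological. The labels give neither the age of the mice on normal diet nor the number of animals behind a sample, so p-values measure the spread between these samples.

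D-type cyclins bind Cdk4 or Cdk6 in early G1, and the resulting kinases phosphorylate the retinoblastoma protein. Unphosphorylated Rb family proteins hold E2F transcription factors in check, and their release lets the genes of DNA replication be transcribed. Ink4 proteins, which include the products of Cdkn2a, Cdkn2c and Cdkn2d, block Cdk4 and Cdk6, and p27, the product of Cdkn1b, inhibits cyclin-Cdk complexes more broadly. In the erythroid lineage the last divisions before enucleation are tied to this circuit: Rb1, E2f2, E2f4 and Ccnd3 are each known from mouse mutants to affect red cell number, size or maturation.

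Start-site windows from RefSeq (assembly GRCm38.p6, 250 bases before to 50 bases after an annotated start, 300 bases in all) were found for 7 of the 10 genes, as 11 windows. Ccnd2, Rb1 and E2f4 had no entry in that table. Windows of Cdkn2a and E2f2 are shown because these genes had higher levels at 7 weeks than at 3 weeks of low iron diet and because theirs were the only ones of the 11 with a match to the E2F letters TTTCCCGC or TTTGGCGC on either strand. Cdkn2a has 2 start sites, the upstream one for p19Arf and the downstream one for p16Ink4a, and both are given. E2f2 also has another window, chr4:136180532-136180831, which held no E2F match and is not given. Sequences run 5′ to 3′ along the gene's strand, in lower case with the E2F match in capitals.
Cdkn2a, upstream start, chr4:89294570-89294869, minus strand: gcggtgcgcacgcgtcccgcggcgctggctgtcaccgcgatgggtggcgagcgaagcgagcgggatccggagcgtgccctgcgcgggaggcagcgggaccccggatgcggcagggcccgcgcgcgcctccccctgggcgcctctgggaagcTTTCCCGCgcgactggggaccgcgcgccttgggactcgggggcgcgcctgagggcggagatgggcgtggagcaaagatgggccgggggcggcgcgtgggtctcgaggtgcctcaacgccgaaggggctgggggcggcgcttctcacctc
Cdkn2a, downstream start, chr4:89282143-89282442, minus strand: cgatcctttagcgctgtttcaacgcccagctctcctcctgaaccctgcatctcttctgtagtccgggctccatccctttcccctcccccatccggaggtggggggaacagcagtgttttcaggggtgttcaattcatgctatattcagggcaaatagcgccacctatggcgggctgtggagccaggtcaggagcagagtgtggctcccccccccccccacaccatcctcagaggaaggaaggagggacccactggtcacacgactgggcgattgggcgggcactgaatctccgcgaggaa
E2f2, chr4:136172024-136172323, plus strand: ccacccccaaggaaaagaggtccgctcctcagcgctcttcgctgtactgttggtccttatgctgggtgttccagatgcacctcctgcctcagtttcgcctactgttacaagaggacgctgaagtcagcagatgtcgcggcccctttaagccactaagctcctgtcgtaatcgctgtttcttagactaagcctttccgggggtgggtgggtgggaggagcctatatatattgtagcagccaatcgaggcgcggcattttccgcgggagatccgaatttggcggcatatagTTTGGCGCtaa

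The match in the upstream Cdkn2a window begins at base -99 relative to the start site, and that in the E2f2 window at base 39. Such a match was present in 514 of 32851 windows of the same length over all genes in the table, or 1.565%. The downstream Cdkn2a window and the other E2f2 window held none. The GATA letters AGATAAG or TGATAAG were in 5.214% of all windows and in 0 of the 11, and the CACCC letters CCACACCC or CCCCACCC in 13.05% and in 0 of the 11. The E-box CACGTG was in 7.15% of all windows and in 2 of the 11, 1 of Cdkn2c and 1 of Cdk6. Both strands were searched for each motif, no motif contains another, and a match describes letters only.

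Levels are log2 of the spot signal minus the log2 75th percentile of the same array, so a gene at 0 was as bright as that percentile. Well above background is the scanner software's own call. Spots with that call made up 45.2% to 53.6% of the arrays at 7 weeks, 56.8% to 70.8% at 3 weeks and 65.5% to 66.3% on normal diet, and the 75th percentile was 791.7 to 1087 at 7 weeks, 1677 to 1837 at 3 weeks and 1499 to 1616 on normal diet. Every slide held 1 group only, which means that slide and diet cannot be told apart. Normal diet replicates 1 and 2 went against their female label: Y-linked Eif2s3y was at 5.12 and 4.82 there and at -3.77 on replicate 3, and Xist, the RNA of the inactive X chromosome, was not well above background on replicates 1 and 2 but was on the other 7 arrays. In limma's estimate of array quality, 7 week replicate 1 had the lowest weight, 0.170, where the other arrays had 0.483 to 2.88. Each call against normal diet is also given with normal diet replicate 3 as the lone control, a fit in which the lone array is assumed to vary like the others. In that fit 0 genes of the whole array passed at 3 weeks (limma, 1609 at an unadjusted p under 0.05) and 1 at 7 weeks.

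All 10 erythroblast marker genes, among them Tfrc and Alas2, were well above background on all 9 arrays. Markers of other marrow cells were measured too, as the summed signal of a list in units of the array's 75th percentile. The monocyte and macrophage list summed to 23.1 to 29.3 at 7 weeks, 68.0 to 96.6 at 3 weeks and 38.4 to 57.8 on normal diet. Of its 9 measured genes, 4, led by Lyz2, rose at 3 weeks against normal diet. Over all genes tested, 3.54% were higher at 3 weeks and 10.7% at 7 weeks against normal diet, the shares beside which such counts stand. The B lineage list summed to 3.54 to 10.03 at 7 weeks, 9.32 to 22.6 at 3 weeks and 4.35 to 7.11 on normal diet, and 2 of its 7 tested genes rose at 3 weeks. The neutrophil list overlapped between all groups, at 374.2 to 587.4 at 7 weeks, 294.5 to 501.1 at 3 weeks and 221.5 to 634.8 on normal diet, with 2 of 10 genes higher at 3 weeks. The T and NK list summed to 22.3 to 40.55 at 7 weeks, 18.6 to 26.4 at 3 weeks and 18.2 to 20.6 on normal diet, so it was higher on every 7 week array than on every normal diet array. Of its 8 genes Cd4 rose at 7 weeks and Klrd1 at 3 weeks against normal diet, and Cd8a was not well above background on any 7 week array. Cd4, the brightest of the 8 on each 7 week array, was at 3.02 to 4.57 there and at 1.80 to 2.15 on normal diet. Cd3e and Klrd1 were also higher on every 7 week array than on every normal diet array. Lck was lower (1.40 to 2.72 against 3.08 to 3.28), and Cd3d, Cd2 and Nkg7 overlapped, so the sum does not stand for the whole list. The megakaryocyte and early progenitor lists overlapped between 7 weeks and normal diet, at 6.51 to 38.9 and 17.99 to 51.3 for the first and at 0.713 to 2.35 and 1.58 to 2.598 for the second. The mast cell, basophil and eosinophil list summed to 0.536 to 0.692 at 7 weeks, 0.578 to 24.4 at 3 weeks and 13.3 to 23.7 on normal diet, and Mcpt8, Cpa3 and Epx were not well above background on any array at 7 weeks, nor was Ms4a2 on any of the 9. The part of these cells in the results below was not tested. In such bulk samples, fewer cells of a type and less RNA per cell cannot be told apart.

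Against normal diet, the 10 genes did not move as a block at either time. After 3 weeks of low iron diet Ccnd2 rose and Cdkn1b, Cdkn2a and E2f4 fell, so 4 of the 9 tested genes passed, where 11.6% of all genes tested did (3.54% higher and 8.01% lower). After 7 weeks Ccnd2 rose, and Cdkn2c and Rb1 fell, so 3 of 9 passed, where 29.4% of all genes did (10.7% higher and 18.7% lower). Between the 2 diet times, Ccnd2, Cdkn2a and E2f2 were higher at 7 weeks than at 3 weeks and none of the 9 was lower, where 37.1% of all genes passed (17.5% higher and 19.5% lower). Only Ccnd2 passed in all 3 comparisons. The arrays of the compared groups did not overlap for 8, 6 and 5 of the 9 genes at 3 weeks against normal diet, at 7 weeks against normal diet and at 7 against 3 weeks. Over all genes tested the groups did not overlap for 49.6%, 47.5% and 48.4%. The median log2 fold change of the 9 was -0.72, -0.60 and 0.38 in these comparisons, beside -0.17, -0.26 and -0.13 over all genes.

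**Figure D1:**
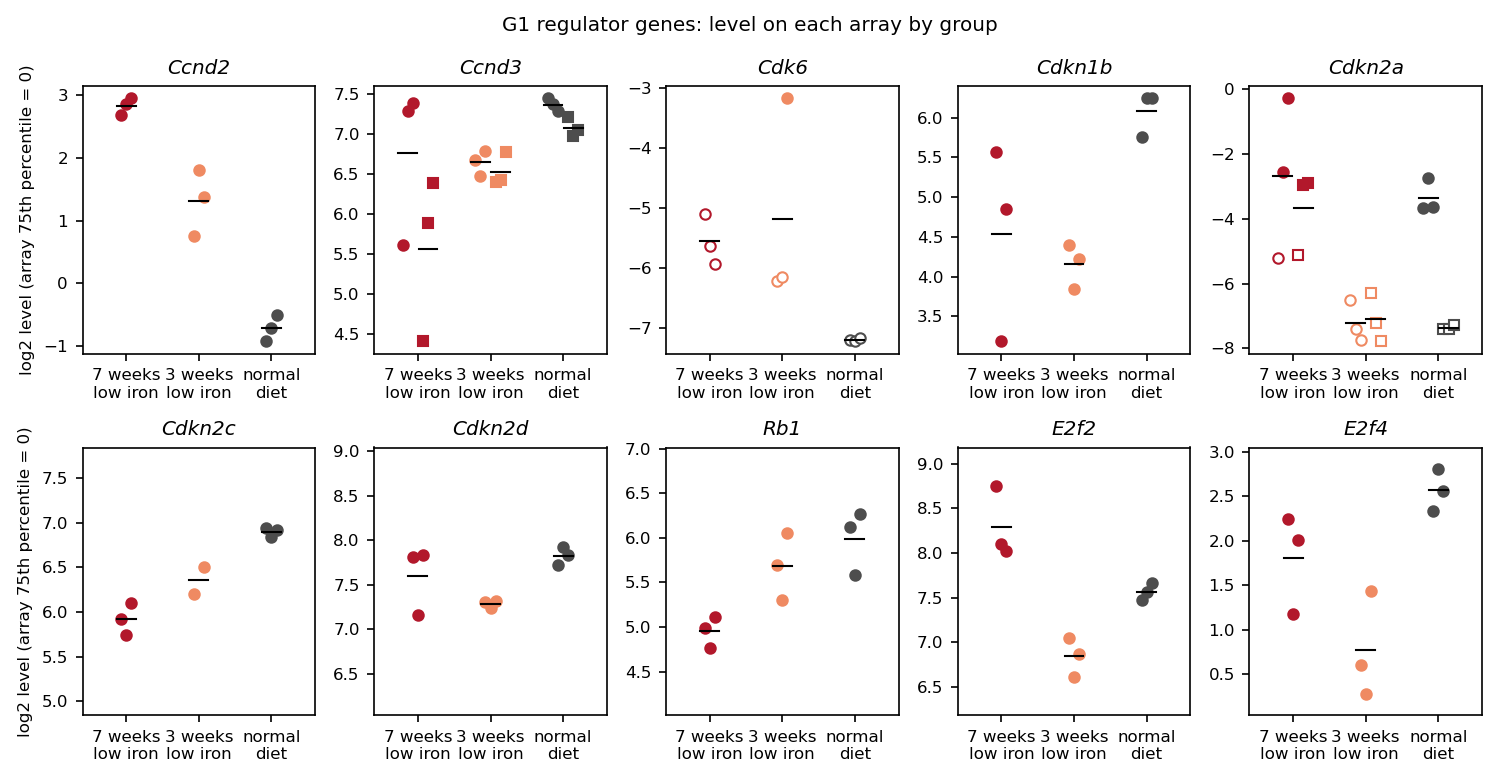
Level of each of the 10 genes on each array, in log2 units with the array's 75th percentile at 0, for 7 weeks of low iron diet, 3 weeks of low iron diet and normal diet. Each point is 1 array, open points were not well above background, squares are a gene's other probe, and bars are group means. Ccnd2 is highest at 7 weeks and lowest on normal diet with no overlap, and Cdkn2a is not well above background on any 3 week array.

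Ccnd2 (chr6:127125162-127152188, GRCm38.p6) encodes cyclin D2, a D-type cyclin whose transcription is known to respond to growth factor signals. Its level was 2.68, 2.86 and 2.95 at 7 weeks, 0.76, 1.80 and 1.37 at 3 weeks, and -0.92, -0.72 and -0.50 on normal diet. Every array at 7 weeks was above every array at 3 weeks, and every array at 3 weeks above every array on normal diet. The log2 fold change against normal diet was 3.55 ± 0.31 (SE) at 7 weeks (adjusted p = 9.02e-04, limma with Benjamini-Hochberg adjustment, as for each adjusted p below) and 2.03 ± 0.31 at 3 weeks (adjusted p = 0.00976), which are 11.7-fold and 4.07-fold. At 7 against 3 weeks it was 1.52 ± 0.31 (adjusted p = 0.00576). With only normal diet replicate 3 as control, the change was 3.33 at 7 weeks (adjusted p = 0.0661) and 1.81 at 3 weeks (adjusted p = 0.326). Leaving out any single array of the 9 ended none of these 3 calls. At 7 weeks, where Ccnd2 was highest, the T and NK sum was above normal diet on every array (22.3 to 40.55 against 18.2 to 20.6). Cd4 was the brightest gene of that list there, and Lck was below normal diet. The B lineage sum at 7 weeks reached both above and below normal diet (3.54 to 10.03 against 4.35 to 7.11). The monocyte and macrophage sum was below normal diet there (23.1 to 29.3 against 38.4 to 57.8). At 3 weeks, where Ccnd2 was also higher, the B lineage sum (9.32 to 22.6) was above normal diet on every array. So was the monocyte and macrophage sum (68.0 to 96.6), while the T and NK sum overlapped with normal diet (18.6 to 26.4). The part of these cells in the Ccnd2 values was not tested.

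Ccnd3 (chr17:47505051-47599689) encodes cyclin D3, the D-type cyclin known in mice to set the number of divisions before terminal erythroid maturation. The brighter of its 2 probes was at 5.62, 7.29 and 7.39 at 7 weeks, 6.68, 6.47 and 6.79 at 3 weeks, and 7.45, 7.37 and 7.28 on normal diet. All 3 arrays at 3 weeks lay below all normal diet arrays, and at 7 weeks replicate 1 lay below the range of both other groups. None of the 3 comparisons passed by this probe: the log2 fold change was -0.60 at 7 weeks (95% interval -1.60 to 0.40, adjusted p = 0.324) and -0.72 at 3 weeks (-1.72 to 0.28, adjusted p = 0.310) against normal diet, and 0.12 at 7 against 3 weeks (-0.88 to 1.12). Without 7 week replicate 1 the 3 week difference from normal diet passed (-0.72, adjusted p = 0.0367) and so did that of 7 from 3 weeks (0.69, adjusted p = 0.0377). The other probe, of another RefSeq transcript of Ccnd3, was at 4.40, 5.89 and 6.39 at 7 weeks, 6.39, 6.42 and 6.77 at 3 weeks, and 7.21, 6.97 and 7.05 on normal diet. It was lower at 7 weeks than on normal diet by a log2 fold change of -1.52 ± 0.46 (adjusted p = 0.0371 over all probes tested), so the probes disagree on whether the 7 week difference passes.

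The 2 cyclin D genes were also set against each other within arrays. The log2 ratio of Ccnd2 to Ccnd3 signal within an array, in which the scaling between arrays drops out, was higher by 4.15 at 7 weeks and by 2.75 at 3 weeks than on normal diet, and by 1.40 at 7 than at 3 weeks. No array of one group overlapped another group's range in any of these. The exact two-sided permutation p was 0.1 each, the smallest that 3 against 3 arrays can give (0.129 adjusted over 9 such ratio comparisons, for pairs chosen after their values were seen). Cdk6 (chr5:3341004-3531008), the kinase partner of these cyclins, was well above background on 1 of 9 arrays, 3 week replicate 3 at -3.17. On the other arrays its probe read -5.93 to -5.11 at 7 weeks, -6.21 and -6.16 at 3 weeks and -7.22 to -7.16 on normal diet, none of them well above background, and it was not tested.

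Cdkn1b (chr6:134920401-134925525) encodes p27, an inhibitor of cyclin-Cdk complexes that accumulates as erythroblasts leave the cycle. Its level was 5.57, 3.19 and 4.85 at 7 weeks, 4.39, 3.85 and 4.23 at 3 weeks, and 5.75, 6.24 and 6.24 on normal diet. All 6 low iron arrays lay below all normal diet arrays, and those at 7 weeks spread widely around those at 3 weeks. The fall at 3 weeks, -1.92 ± 0.54, was at the edge of the threshold (adjusted p = 0.04999). It did not pass when any 1 of the 6 arrays compared was left out (adjusted p = 0.102 to 0.159), nor without 7 week replicate 3 (adjusted p = 0.0575). With only normal diet replicate 3 as control it was -2.09 (adjusted p = 0.446). At 7 weeks the difference was -1.55 (95% interval -2.76 to -0.33, adjusted p = 0.0572), and without 7 week replicate 1 it was -2.06 (adjusted p = 0.0125). The 2 diet times differed by 0.38 (-0.83 to 1.59, adjusted p = 0.610), and without 7 week replicate 2 by 1.05 (adjusted p = 0.0450).

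Cdkn2a (chr4:89274473-89294619) encodes both p16Ink4a, a Cdk4 and Cdk6 inhibitor, and p19Arf, which stabilises p53. Both of its probes carry the same transcript accession, and the products were not told apart here. The probe that was tested was at -5.22, -2.54 and -0.27 at 7 weeks, -6.52, -7.42 and -7.75 at 3 weeks, and -3.65, -2.75 and -3.65 on normal diet. It was dim throughout, not well above background on any array at 3 weeks nor on 7 week replicate 1. At 3 weeks it was at least 3.34-fold lower than on normal diet (adjusted p = 0.0414), the bound being set by the dimmest spots well above background on the 3 week arrays. The gene passed the filter on dim probes through normal diet, the higher group in this comparison. With normexp background correction the fitted 3 week difference was -1.40, or 2.63-fold, which is under that bound and did not pass (adjusted p = 0.1995), and with no filter on dim probes the call was lost too (adjusted p = 0.0553). At 7 weeks the fitted value was higher than at 3 weeks by 4.55 ± 1.02 on the log2 scale (adjusted p = 0.00848), with 2 of the 3 arrays at 7 weeks well above background. This value is no bound, since 7 week replicate 1 and all 3 week arrays were not well above background. With normexp the fitted difference of 7 from 3 weeks was 2.35, or 5.08-fold (adjusted p = 0.0246).

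The fall of Cdkn2a at 3 weeks did not pass when any 1 of the 6 arrays compared was left out (adjusted p = 0.0844 to 0.1303), nor with only normal diet replicate 3 as control (fitted log2 fold change -3.58, adjusted p = 0.474). The difference of 7 from 3 weeks passed whichever array was left out (highest adjusted p = 0.0364). At 7 weeks against normal diet the fitted change was 0.67 (95% interval -1.63 to 2.97, adjusted p = 0.638), and without 7 week replicate 1 it was 1.94 (adjusted p = 0.0497). The other Cdkn2a probe was not well above background on any 3 week or normal diet array nor on 7 week replicate 1, and was at -2.94 and -2.91 on 7 week replicates 2 and 3. The probes thus disagree on normal diet, where 1 was well above background on all 3 arrays and the other on none.

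Cdkn2c (chr4:109660876-109666756) encodes p18Ink4c. Its level was 5.92, 5.74 and 6.10 at 7 weeks, 6.20 and 6.51 at 3 weeks, where the spot on replicate 1 was marked as non-uniform and left out, and 6.94, 6.84 and 6.92 on normal diet. The groups were ordered without overlap, lowest at 7 weeks and highest on normal diet. The fall at 7 weeks against normal diet was -0.98 ± 0.25 (adjusted p = 0.0234), or 1.97-fold. At 3 weeks the difference was -0.55 (95% interval -1.19 to 0.10, adjusted p = 0.234, with 2 arrays against 3), and 7 differed from 3 weeks by -0.43 (-1.08 to 0.21, adjusted p = 0.256). The 7 week call was lost without normal diet replicate 1 (adjusted p = 0.0835), 2 (0.0555) or 3 (0.0790) and without 7 week replicate 2 (0.0501). With only normal diet replicate 3 as control the difference was -0.99 (adjusted p = 0.267).

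Cdkn2d (chr9:21288459-21291421) encodes p19Ink4d, another Ink4 inhibitor. Its level was 7.82, 7.16 and 7.83 at 7 weeks, 7.30, 7.24 and 7.32 at 3 weeks, and 7.72, 7.92 and 7.84 on normal diet. It was lower on every array at 3 weeks than on every normal diet array, while 7 week replicates 1 and 3 lay in the range of normal diet and replicate 2 below both other groups. No comparison passed: -0.22 (95% interval -0.82 to 0.38) at 7 weeks and -0.54 (-1.14 to 0.06) at 3 weeks against normal diet, and 0.32 (-0.28 to 0.92) at 7 against 3 weeks. With quantile normalization between arrays the first of these was -0.87 and passed (adjusted p = 0.0244), the second was -0.056 (adjusted p = 0.899), and the last turned to -0.81 (adjusted p = 0.0231). The log2 ratio of Cdkn2c to Cdkn2d within an array differed by -0.756 at 7 weeks from normal diet and by -0.757 from 3 weeks, with no overlap in either (exact two-sided permutation p = 0.1 each, adjusted 0.129). At 3 weeks against normal diet it overlapped (exact p = 1).

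Rb1 (chr14:73192858-73325951) encodes the retinoblastoma protein, and its probe was spotted 10 times on each array, so its level is a mean of 9 or 10 usable spots. The level was 4.99, 4.76 and 5.12 at 7 weeks, 5.69, 5.30 and 6.05 at 3 weeks, and 6.12, 5.58 and 6.26 on normal diet. The 7 week arrays lay below all others, and those at 3 weeks overlapped with normal diet. Rb1 fell by 1.03 ± 0.30 on the log2 scale at 7 weeks against normal diet (adjusted p = 0.0326), or 2.05-fold. At 3 weeks the difference was -0.31 (95% interval -0.99 to 0.38, adjusted p = 0.532), and 7 differed from 3 weeks by -0.73 (-1.41 to -0.04, adjusted p = 0.0875).

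The Rb1 call at 7 weeks was lost without normal diet replicate 1 (adjusted p = 0.110) or 3 (0.117), without 3 week replicate 1 (0.0528) and without 7 week replicate 2 (0.0722). With only normal diet replicate 3 as control Rb1 was at -1.31 (adjusted p = 0.180). With quantile normalization the 7 week difference was -0.84 (adjusted p = 0.0583).

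E2f2 (chr4:136172274-136196057) encodes an E2F factor whose loss in mice is known to disturb the cell cycle exit and maturation of erythroblasts. Its level was 8.75, 8.10 and 8.03 at 7 weeks, 7.05, 6.61 and 6.87 at 3 weeks, and 7.47, 7.56 and 7.67 on normal diet. The groups did not overlap: the 7 week arrays were highest, the 3 week arrays lowest and normal diet in between. E2f2 was higher at 7 than at 3 weeks by 1.45 ± 0.28 (adjusted p = 0.0047), or 2.72-fold. Against normal diet it was at 0.72 at 7 weeks (95% interval 0.09 to 1.36, adjusted p = 0.0806) and at -0.72 at 3 weeks (-1.36 to -0.09, adjusted p = 0.125). The 3 week difference passed without 7 week replicate 1 (adjusted p = 0.0424).

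E2f4 (chr8:105297663-105305370) encodes an E2F that mostly acts as a repressor with Rb family proteins and is needed for normal red cell formation in mice. Its level was 2.25, 1.18 and 2.01 at 7 weeks, 0.61, 0.29 and 1.43 at 3 weeks, and 2.34, 2.81 and 2.55 on normal diet. Every low iron array was below every normal diet array, and the ranges of the 2 diet times overlapped. The fall at 3 weeks was -1.79 ± 0.39 (adjusted p = 0.0247), or 3.46-fold. At 7 weeks the difference from normal diet was -0.76 (95% interval -1.64 to 0.13, adjusted p = 0.168). The difference of 7 from 3 weeks was 1.04 (0.15 to 1.92, adjusted p = 0.0644), and it passed without 3 week replicate 3 (1.37, adjusted p = 0.0382) or 7 week replicate 2 (1.35, adjusted p = 0.0275). It also passed with quantile normalization (1.15, adjusted p = 0.0417), but before scaling it was 0.072 (adjusted p = 0.897).

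The E2f4 call at 3 weeks was lost without any 1 normal diet array and without 3 week replicate 1 or 2 (adjusted p = 0.0633 to 0.0947), and with only normal diet replicate 3 as control the difference was -1.78 (adjusted p = 0.394). The log2 ratio of E2f2 to E2f4 within an array was higher than on normal diet by 1.48 at 7 weeks and by 1.07 at 3 weeks, without overlap (exact two-sided permutation p = 0.1 each, adjusted 0.129). Between 7 and 3 weeks it differed by 0.41 with overlap (exact p = 0.4, adjusted 0.45).

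**Figure D2:**
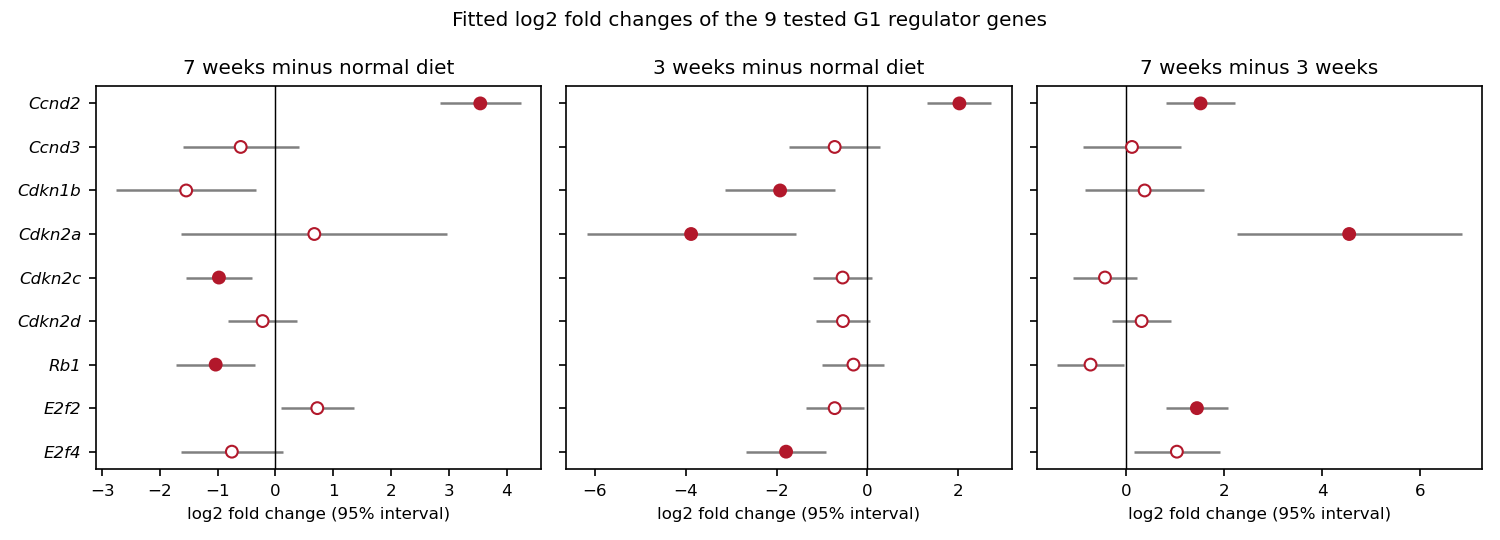
Fitted log2 fold changes with 95% intervals of the 9 tested genes at 7 weeks of low iron diet minus normal diet, 3 weeks minus normal diet, and 7 weeks minus 3 weeks. Filled points passed the adjusted p threshold of 0.05. Ccnd2 is filled in all 3 panels, and Cdkn2a is to the left at 3 weeks and to the right in 7 weeks minus 3 weeks.

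How the arrays were scaled bears on the 7 week values. The spots for added control RNA (spike-ins) had a mean log2 signal of 14.5 to 15.0 at 7 weeks before scaling. It was 11.9 to 12.3 at 3 weeks and 11.2 to 12.3 on normal diet. After scaling it was 4.44 to 5.35, 1.10 to 1.57 and 0.50 to 1.74 in the same order. Sample signal relative to spike-in signal was thus lower on the 7 week slide. The part of this in the 7 week values was not tested, and no scaling used the spike-ins. Before scaling, the median log2 change of all genes was -1.07 at 7 weeks and -0.0159 at 3 weeks against normal diet, and -1.09 at 7 against 3 weeks. Ccnd2, against those medians, was at 2.74 (adjusted p = 8.97e-04), 2.18 (adjusted p = 0.0158) and 0.56 (adjusted p = 0.208) in the same order, so its rise from normal diet passed and the difference between diet times did not. E2f2 differed between 7 and 3 weeks by 0.48 before scaling (adjusted p = 0.170) and by 0.10 with quantile normalization (adjusted p = 0.771). Against normal diet at 7 weeks E2f2 was at -0.081 before scaling (adjusted p = 0.824) and at 0.014 with quantile normalization (adjusted p = 0.973), and at 3 weeks it was at -0.56 (adjusted p = 0.239) and -0.090 (adjusted p = 0.851). E2f2, Cdkn2d and Ccnd3 were bright, at 32.8%, 32.8% and 20.98% of the saturation value as a geometric mean over the arrays, though no spot was marked saturated. Of the 396 genes at 20% of that value or more, 62.6% were called at 7 against 3 weeks, 61.9% as higher and 0.758% as lower, with a median of 1.03 (0.0616 before scaling). At 7 weeks against normal diet 34.1% of them were called, 30.6% as higher and 3.54% as lower, and at 3 weeks 17.7%, all of them lower. The part of brightness in the E2f2 result was not tested. Ccnd2, at 0.381% of the saturation value, E2f4, at 0.567%, and Cdkn2a, at 0.00806%, lay far below that range. The Cdkn2a difference of 7 from 3 weeks passed before scaling (adjusted p = 0.0209) and with quantile normalization (adjusted p = 0.0498), in fits against 3 week arrays that were not well above background.

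At 7 against 3 weeks, Rb1 and Cdkn2c passed as lower under both other scalings. Rb1 was at -1.69 before scaling (adjusted p = 0.0043) and at -1.19 with quantile normalization (adjusted p = 0.0122), and Cdkn2c was at -1.42 (adjusted p = 0.0102) and -1.19 (adjusted p = 0.00831). Over all genes the median was -1.09 before scaling and -0.25 with quantile normalization. Of the falls at 3 weeks, that of E2f4 passed with quantile normalization (-1.69, adjusted p = 0.0320) and missed the threshold before scaling (-1.63, adjusted p = 0.0534), and those of Cdkn1b and Cdkn2a missed it under both (adjusted p = 0.0705 to 0.117). Before scaling, Cdkn1b, Cdkn2d, Ccnd3 and E2f4 also passed as lower at 7 weeks against normal diet, at -2.35, -1.03, -1.41 and -1.56 beside the median of -1.07.

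**Figure D3:**
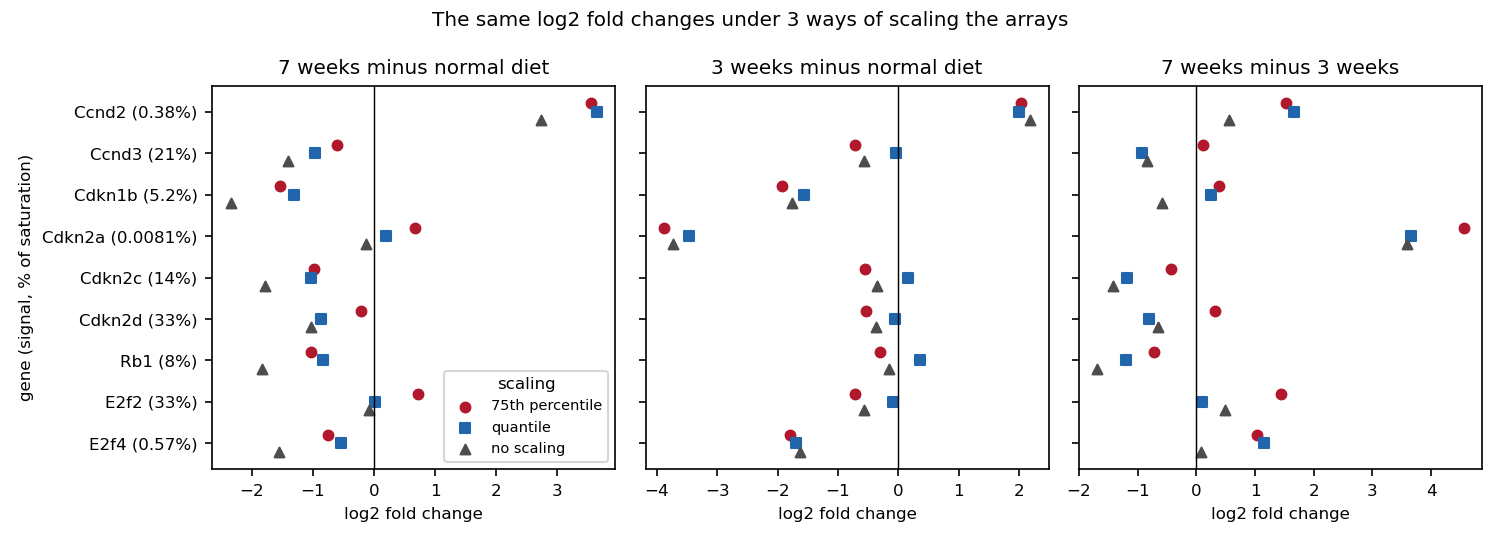
Log2 fold changes of the 9 tested genes with the array 75th percentile (circles), quantile normalization (squares) and no scaling (triangles), for 7 weeks minus normal diet, 3 weeks minus normal diet and 7 weeks minus 3 weeks. The percentage beside each name is the gene's signal relative to saturation. Ccnd2 lies to the right of 0 under all 3 in each panel, while E2f2 moves from 1.45 to 0.10 in 7 weeks minus 3 weeks with quantile normalization.

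The other genes of the circuit were followed through 5 lists. Of 10 other G1 cyclin and kinase genes, 4 fell and none rose at 7 weeks against normal diet (median -1.42), 1 rose at 3 weeks (median -0.28), and 6 fell at 7 against 3 weeks (median -1.93), where 29.4%, 11.6% and 37.1% of all genes passed. The 1 of 10 at 3 weeks is near the 11.6% of all genes that passed in either direction, and above the 3.54% that were higher. The 3 week median was -0.16, -0.18 and -0.44 without normal diet replicate 1, 3 week replicate 2 and 3 week replicate 3. Ccne2, which encodes cyclin E2, a partner of Cdk2 at the entry to S phase, fell by 3.65 ± 0.60 on the log2 scale at 7 weeks (adjusted p = 0.00443). Ccnd1, the third D-type cyclin gene, was at least 2.49-fold lower at 7 weeks than on normal diet (adjusted p = 0.00114) and not well above background on any 7 week array. It passed the filter on dim probes only through normal diet and 3 weeks, the groups where it was higher, and it is among the 4 and the 6 that fell. The kinase gene Cdk2 itself was lower at 7 than at 3 weeks (-3.21 ± 0.61, adjusted p = 0.0042), and its 7 week difference from normal diet, -1.68 ± 0.61, did not pass (adjusted p = 0.0658). Cdk7, of the Cdk-activating kinase, was the gene that rose at 3 weeks (1.28 ± 0.36, adjusted p = 0.04999), and Ccnh, its cyclin partner, fell at 7 weeks (-3.56 ± 0.66, adjusted p = 0.00661). Ccnc, the gene of cyclin C, fell at 7 weeks as well (-2.38 ± 0.29, adjusted p = 0.00208).

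Among other Cdk inhibitors and the genes of their turnover, 10 of 12 were tested, since Cdkn2b was too dim and Skp2 was not matched to a probe. At 7 weeks against normal diet 2 rose and 2 fell (median -0.28), at 3 weeks none rose and 2 fell (median -0.33), and at 7 against 3 weeks 2 rose and 2 fell (median 0.35), where 29.4%, 11.6% and 37.1% of all genes passed. The 4 of 10 at 7 weeks and the 4 of 10 at 7 against 3 weeks are near those shares. These medians moved with single arrays, to -0.47, -0.052 and -0.44 at 7 weeks without normal diet replicate 3, 7 week replicate 2 and 7 week replicate 3, to -0.56 and -0.54 at 3 weeks without normal diet replicate 3 and 3 week replicate 2, and to 0.53 and 0.12 at 7 against 3 weeks without 3 week replicates 2 and 3. Cdkn1a, which encodes p21, the relative of p27, was at 5.10, 3.14 and 4.62 at 7 weeks, 1.30, 2.50 and -1.95 at 3 weeks, and -1.87, -1.99 and -2.84 on normal diet. Its 7 week arrays were above all others, and at 3 weeks replicate 3 lay within the range of normal diet. Beside Cdkn1b, at -1.55 and not called at 7 weeks, Cdkn1a thus rose (6.52 ± 1.01, adjusted p = 0.00383), and at 3 weeks its difference of 2.85 ± 1.01 did not pass (adjusted p = 0.0981). Cul1, the scaffold of SCF ubiquitin ligases, and Fbxo31, an F-box protein gene, fell at 7 weeks (-1.96 ± 0.50, adjusted p = 0.0209, and -1.92 ± 0.43, adjusted p = 0.0122). Rbx1, the RING subunit of these ligases, fell at 3 weeks (-1.06 ± 0.23, adjusted p = 0.0256) and rose at 7 weeks against normal diet (0.71 ± 0.23, adjusted p = 0.0485), but at 7 weeks it was at -0.09 before scaling. Cks1b, a cofactor in p27 degradation, fell at 3 weeks (-1.05 ± 0.23, adjusted p = 0.0245) and was at -0.44 there with quantile normalization (adjusted p = 0.221).

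Of 15 other genes of Rb relatives, E2F and DP factors and the DREAM complex, 7 fell and 1 rose at 7 weeks against normal diet (median -1.57), 2 fell and 1 rose at 3 weeks (median -0.34), and 6 fell and 1 rose at 7 against 3 weeks (median -0.92), where 29.4%, 11.6% and 37.1% of all genes passed. Without 7 week replicate 1 the medians were -0.93 at 7 weeks against normal diet and -0.46 at 7 against 3 weeks, with 8 and 7 genes lower and 1 higher in each. Rbl1, which encodes the Rb relative p107, fell at 7 weeks (-2.66 ± 0.51, adjusted p = 0.00709), as Rb1 did. Lin54, the DNA-binding subunit of DREAM, fell at both times (-2.72 ± 0.26 at 7 weeks, adjusted p = 0.00114, and -1.44 ± 0.26 at 3 weeks, adjusted p = 0.0145). Lin37, another subunit, was the gene that rose at 7 weeks (1.90 ± 0.45, adjusted p = 0.0152). E2f6, a repressor E2F, fell at 7 weeks (-1.84 ± 0.39, adjusted p = 0.0105). At 3 weeks E2f5, a repressor E2F related to E2f4, rose (2.26 ± 0.57, adjusted p = 0.0355) and E2f8, an atypical repressor, fell (-1.26 ± 0.34, adjusted p = 0.0474). E2f1 did not pass at 7 weeks (-1.82 ± 0.76, adjusted p = 0.0991).

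Of 26 E2F target genes of the G1 to S transition, 7 fell and none rose at 7 weeks against normal diet (median -1.20), none passed at 3 weeks (limma, 3 at an unadjusted p under 0.05, median -0.55), and 5 fell and none rose at 7 against 3 weeks (median -0.68). Over all genes 29.4%, 11.6% and 37.1% passed. The 26.9% of the list at 7 weeks, all of them lower, is below that 29.4% but above the 18.7% lower over all genes. The 19.2% lower at 7 against 3 weeks is near the 19.5% lower over all genes. Without 7 week replicate 1 the list's median at 7 weeks was -0.53, with 9 genes lower, at 7 against 3 weeks it was 0.00067, with 5 lower and 2 higher, and at 3 weeks 6 genes passed as lower and 1 as higher. At 7 against 3 weeks the median was -1.12 without 7 week replicate 2 and -1.16 without replicate 3. Cdc45, of the replicative helicase, fell most at 7 weeks (-3.25 ± 0.58, adjusted p = 0.00597). Slbp, which processes histone mRNA, fell by 3.04 ± 0.70 on the log2 scale (adjusted p = 0.0139), Pola1, of DNA polymerase alpha, by 2.39 ± 0.63 (adjusted p = 0.0226), and Orc1, of the origin recognition complex, by 1.91 ± 0.32 (adjusted p = 0.00481). The remaining 19 did not pass, among them Cdt1 (-2.07 ± 0.80, adjusted p = 0.0800).

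Of 14 upstream regulators of these genes, 3 fell and none rose at 7 weeks against normal diet (median -0.25), 1 rose at 3 weeks (median -0.28), and 2 rose and 5 fell at 7 against 3 weeks (median -0.34). The 3 of 14 at 7 weeks and the 1 of 14 at 3 weeks are below the 29.4% and 11.6% over all genes. They are above the shares in the same direction, 18.7% lower at 7 weeks and 3.54% higher at 3 weeks. At 7 against 3 weeks 37.1% of all genes passed. Without 7 week replicate 2 the medians were -0.092 at 7 weeks and 0.11 at 7 against 3 weeks, and at 3 weeks the median was -0.18 without normal diet replicate 3 and -0.13 without 3 week replicate 2. Myc, a growth factor-responsive activator of Ccnd2 transcription, was at -0.60, 0.57 and -0.30 at 7 weeks, 0.93, 1.33 and 1.74 at 3 weeks, and -0.13, 0.26 and -0.48 on normal diet. It was higher on every array at 3 weeks than on any array of the other groups (1.45 ± 0.38 against normal diet, adjusted p = 0.0416) and differed by 0.0033 from normal diet at 7 weeks (adjusted p = 0.996). The part of Myc in the Ccnd2 values was not tested. Bmi1 and Ezh2, Polycomb genes known to hold Cdkn2a silent, fell at 7 weeks (-1.78 ± 0.50, adjusted p = 0.0279, and -1.11 ± 0.37, adjusted p = 0.0473). Their part in the Cdkn2a values was not tested. Mxi1, of the Myc antagonist family, fell too (-1.74 ± 0.43, adjusted p = 0.0175).

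Over these 5 lists, 26 of 75 tested genes passed at 7 weeks against normal diet (34.7%), 7 at 3 weeks (9.33%) and 29 at 7 against 3 weeks (38.7%), totals close to the 29.4%, 11.6% and 37.1% over all genes. By direction, 3 were higher and 23 lower at 7 weeks, 3 and 4 at 3 weeks, and 5 and 24 at 7 against 3 weeks. Over all genes 10.7% were higher and 18.7% lower, 3.54% and 8.01%, and 17.5% and 19.5%. The lists thus leaned more to lower than all genes did at 7 weeks and at 7 against 3 weeks. The 7 calls at 3 weeks became 0 without normal diet replicate 1, 2 or 3 or 3 week replicate 1 or 2, 2 without 3 week replicate 3 and 20 without 7 week replicate 1. Those at 7 weeks against normal diet became 13 without normal diet replicate 1 and 14 without replicate 3, and those at 7 against 3 weeks became 17 without 3 week replicate 3. Among the list genes named here, with quantile normalization the calls of Rbx1, Cks1b, E2f8 and Myc at 3 weeks were lost (adjusted p = 0.0512 to 0.221), as were those of Rbx1 and Ezh2 at 7 weeks against normal diet (adjusted p = 0.381 and 0.116). Before scaling, those of Cdk7, Rbx1, Cks1b and E2f8 at 3 weeks (adjusted p = 0.0559 to 0.139) and of Rbx1 and Lin37 at 7 weeks (adjusted p = 0.787 and 0.0681) were lost. With only normal diet replicate 3 as control, none of the lists' genes passed against normal diet at either time (limma, 19 at an unadjusted p under 0.05 at 7 weeks and 6 at 3 weeks).

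**Figure D4:**
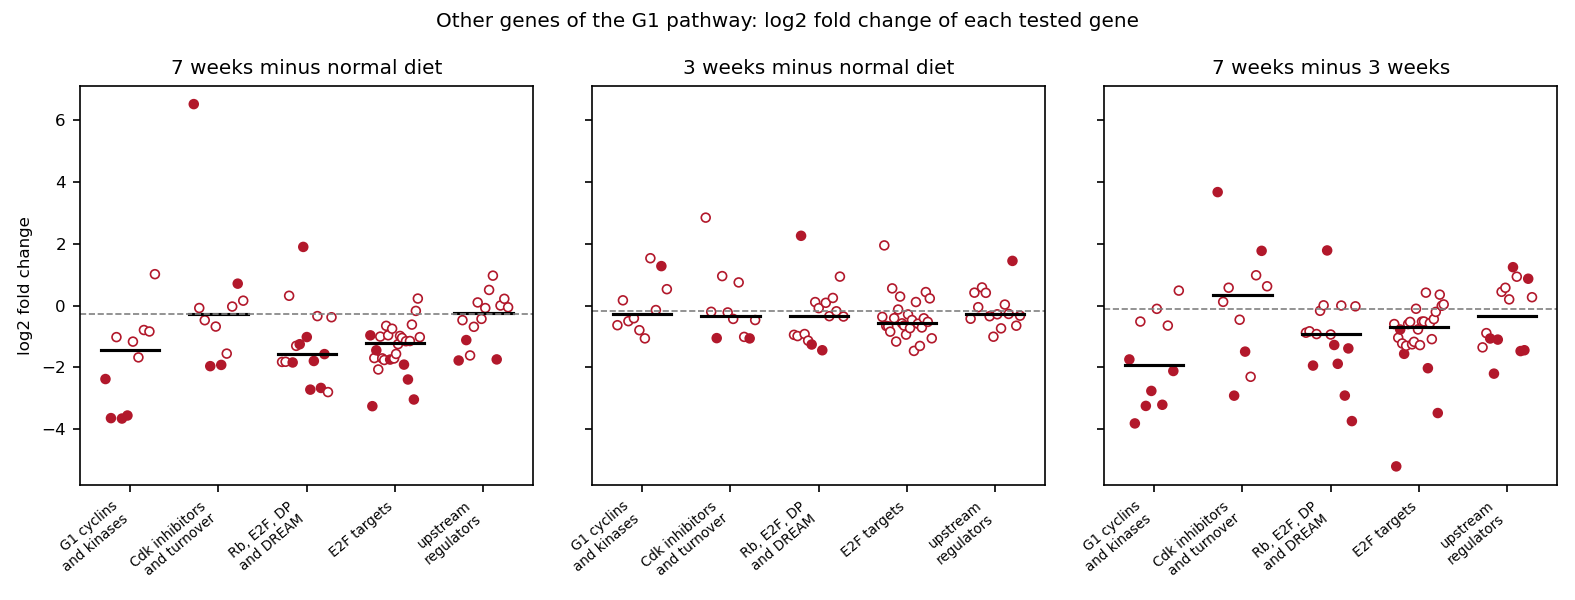
Log2 fold change of each tested gene of the 5 pathway lists at 7 weeks of low iron diet minus normal diet, 3 weeks minus normal diet, and 7 weeks minus 3 weeks. Each point is 1 gene, filled where it passed the threshold, the black bars are list medians and the dashed line is the median of all genes tested. At 7 weeks the highest point, at 6.52, is Cdkn1a, and the medians of the cyclin and kinase list (-1.42), the Rb and E2F list (-1.57) and the E2F target list (-1.20) lie below the dashed line (-0.26).

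For each gene that passed in a comparison, the 2 tested genes of the whole array with the most similar profile were found, by the root mean square difference of log2 levels over the 9 arrays after centring each gene. For Cdkn2c, over 8 arrays, these were Prc1 (0.0578) and Rad21 (0.0873). For E2f2 they were H2bc6 (0.113) and Ptges (0.118), and for Rb1 Ttf2 (0.132) and 1110059G10Rik (0.133). Grb2 (0.201) and Max (0.252) were nearest to E2f4. Nearest to Ccnd2 were Slc52a2 (0.354) and Mfsd4b5 (0.479), to Cdkn1b Phf21a (0.360) and Brpf3 (0.374), and to Cdkn2a Polr2l and Dpm3 (1.03 each). This distance grows with a gene's own spread, whose SD over the arrays was 0.472 for Cdkn2c, 1.57 for Ccnd2 and 2.50 for Cdkn2a, so it does not rank the genes. The arrays share their slides and groups, so these distances are descriptions.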

How the data were processed

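Spot intensities of 9 Agilent single-colour arrays were analysed. Per the labels' protocols RNA was amplified and coupled to Cy3, and per the file headers the deposited intensity values were written by Agilent Feature Extraction 10.7.3.1 after background subtraction and detrending, with no scaling between arrays. The log2 values of the deposited series table had been centred per probe on the median of the 9 arrays. This was seen from their r of 0.997 to 0.999 with the scaled scanner values centred in that way (slope 0.995 to 1.00, column medians 0, except -0.0191 for 7 week replicate 2). The earlier normalization of the deposited values is not given in the sources used here. The deposited values served as an alternative.

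Control spots and spots marked as outliers were left out, and spots of a probe were averaged. Probes were named through RefSeq accessions (GRCm38.p6): 26413 of 55681 probes had a symbol and 29268 had none. A probe was tested if well above background on all usable arrays of at least 1 group and usable on at least 2 arrays of each, and the brightest probe stood for a gene, while the text gives all probes of the 10 genes. The 3 comparisons came from 1 limma fit (limma 3.58.1, R 4.3.3, lmFit and eBayes) over the 9 arrays, two-sided, with Benjamini-Hochberg adjustment over 14637 genes and a threshold of 0.05. For 145 genes a spot was left out on at least 1 array. The fit was tested on simulated data with known fold changes. Those data had independent noise with the same spread on all arrays and no slide effect, so they do not bear on slide or array quality.

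From each of the 5 pathway lists at most 4 passing and 2 other genes per comparison could be named, by size of change, and Cdkn1a was always given. The 10 genes and the lists were chosen with earlier results of these data known. The scanner files hold a median spot signal, so the normexp alternative used it in place of the planned mean signal. The alternative that kept only probes usable on every array was chosen after seeing the data. The number of arrays limits the precision.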

Additional observations from a re-analysis of the deposited data

Results flagged for a closer look

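The effect of the low iron diet differed between its 2 times, by the test of the difference itself, for 3 of the 9 tested genes, with the same normal diet arrays as controls. The difference of 7 from 3 weeks was 4.55 ± 1.02 on the log2 scale for Cdkn2a (adjusted p = 0.00848), from a fit in which no 3 week array was well above background, so the value is no bound. It was 1.52 ± 0.31 for Ccnd2 (adjusted p = 0.00576), which was above normal diet at both times. It was 1.45 ± 0.28 for E2f2 (adjusted p = 0.0047), which was at 0.72 at 7 weeks and at -0.72 at 3 weeks against normal diet without passing in either. With quantile normalization these 2 values were 0.014 and -0.090. Over all genes tested 37.1% passed in this comparison.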

How the results depend on the processing

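Each of the 27 values of the 9 genes was recomputed under up to 21 alternatives. Of these recomputed values 479 counted as unchanged and kept their side of the threshold, 52 lost a call and 24 gained one. In 13 values called in neither fit the sign changed. Of those 13, 5 moved by more than the spread between replicates, and the rest are within the 479. A single value reversed past the threshold, Cdkn2d at 7 against 3 weeks, -0.8091 with quantile normalization. The cause was not tested. The calls of Cdkn2a at 7 against 3 weeks held in all alternatives, and those of Ccnd2 and E2f2 in all but those named in the report.

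At 3 weeks against normal diet, calls over all genes, the 10 genes and the 5 lists (1691, 4 and 7) became 974, 1 and 3 without scaling. For the 10 genes and the lists they were 2 and 3 with quantile normalization and 2 and 4 with no filter on dim probes. All genes and the lists gave 4445 and 24 with only the arrays of the 2 groups, and 4959 and 23 with array weights. With only normal diet replicate 3 as control all 3 counts were 0 (limma, 1609, 3 and 6 at an unadjusted p under 0.05). Leaving out single arrays gave 208 to 3531, 1 to 6 and 0 to 20.

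At 7 weeks against normal diet the counts (4306, 3 and 26) became 7154, 7 and 52 without scaling, 6991 over all genes with no filter, 2830 over all genes and 17 in the lists with only the arrays of the 2 groups, and 1, 0 and 0 with only normal diet replicate 3 as control (3071, 2 and 19 at an unadjusted p under 0.05). Leaving out single arrays gave 1751 to 5246, 1 to 5 and 13 to 32. At 7 against 3 weeks (5425, 3 and 29) the 10 genes gave 6 calls with quantile normalization, and the lists gave 18 with only the arrays of the 2 groups and 18 with only normal diet replicate 3 as control. Leaving out single arrays gave 3559 to 6539, 3 to 5 and 17 to 33.

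Scaling and the filter also moved the split of higher against lower calls. Over all genes it was 518 to 1173 at 3 weeks, against 624 to 797 with quantile normalization and 494 to 480 without scaling. At 7 weeks it was 1569 to 2737, against 459 to 6695 without scaling and 4212 to 2779 with no filter, and at 7 against 3 weeks 2568 to 2857, against 831 to 6849 and 4756 to 2828.

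With the replicate number as a block, the 10 genes gave 2, 3 and 3 calls at 3 weeks and at 7 weeks against normal diet and at 7 against 3 weeks, and Cdkn1b and Cdkn2a lost theirs at 3 weeks (adjusted p = 0.0591 and 0.0621). The numbers were not taken as pairs: deviations of same-numbered arrays correlated at -0.171 to 0.286 across genes, and not every array correlated best with its own number. Signal near background limits Cdk6 and Cdkn2a.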
